A study of Mus musculus with 22 samples.

Results

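The 41 genes described here encode the machinery of regulated secretion, from the proteins that pack and process peptides in dense core granules to those that move, dock and fuse the granules. They were chosen as a list of names, with earlier results of these data known, and all 41 were among the 24421 genes counted in each of 22 libraries. The libraries came from colon crypts of wild-type C57BL/6N male mice of 5 to 7 weeks, with no treatment, and each held at least 2500 sorted cells. All cells were live, Epcam+, Cd31- and Cd45-. By the sample labels, stem cells (3 libraries) had the highest Cd44, low Cd24 and no Ckit, AbsPro (3, absorptive progenitors) medium to high Cd44, low Cd24 and no Ckit, and SecPDG (4, secretory progenitors with deep crypt secretory cells) high Cd44, medium Cd24 and medium Ckit. Tuft cells (5) were Ckit+ with high Cd24, enterocytes (5) had low or no Cd44 and no Cd24, and enteroendocrine cells (EECs, 2) had low or no Cd44 with Cd24. By the methods of the study, the libraries came from independent mice and sorts, and mice were pooled to obtain enough cells. Stem cell and AbsPro libraries came from single mice and those of the other types from pools. Pooling and cell type therefore cannot be told apart. A sorted gate is not a pure cell type, and in bulk RNA fewer cells of a type and less RNA per cell cannot be told apart.

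Endocrine cells and neurons store peptides in dense core granules. Granins and their partners aggregate in the secretory pathway, convertases and carboxypeptidases cut prohormones, and calcium then drives SNARE proteins to fuse the granule with the cell membrane, with synaptotagmins as calcium sensors. Rab3 and Rab27 and their effectors tether granules at the membrane, and goblet cells release mucin granules with related machinery. Enteroendocrine cells of the colon release serotonin and peptide hormones in this way.

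Reads on genes came to between 4122122 (EEC 1) and 22462518 per library. Values are normalized counts, which are the deposited counts divided by library sizes scaled with trimmed means (TMM). A gene was called when edgeR's quasi-likelihood test gave a Benjamini-Hochberg adjusted p under 0.01 over the 22781 genes tested and its mean was at least 50 normalized counts over all libraries. A standard error (SE) given with a log2 difference was derived from this test, as the difference divided by the square root of the F value. It was not estimated directly by the fit, and intervals built on it are approximate. A gene high in EECs alone could pass the minimum mean and be called between types where it was low. Of the 41 members, 35 had such a mean, so that the other 6 (Cplx1, Syt1, Syt4, Scgn, Scg2 and Pcsk2) could not be called whatever their difference, and a count of calls is not a count over all members. Reads on 1553 genes of the olfactory, vomeronasal and trace amine receptor, keratin-associated and beta-defensin families served to estimate a background per exon length. These families were assumed to be silent in colon epithelium, which was not tested gene by gene. Those reads came to 12.6 to 161 CPM (counts scaled to library size) over the stem cell, AbsPro and SecPDG libraries, 184 to 1513 for tuft cells, 802 to 3995 for enterocytes, 634 for EEC 2 and 7240 for EEC 1. Counting did not use strand, and by GENCODE exons 7 members share bases with another counted gene (Pam, Pcsk1n, Pcsk2, Rab3a, Rab3b, Sybu and Unc13a). Each gene pair shares 29 to 495 bases, and reads on those bases cannot be assigned to either gene. Files of SecPDG and tuft cells carry another form of name than those of the other 4 cell types, and a batch of that kind and the cell type cannot be told apart.

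Each gate was checked against marker genes, and some held markers of another type. The summed normalized counts of 11 enteroendocrine markers were 576900 and 1611000 in the 2 EEC libraries, and 202 to 586 in stem cells. AbsPro had 3196 to 14620, SecPDG 2438 to 6120, tuft cells 1654 to 26190 and enterocytes 7154 to 26380. The summed tuft markers were 26740 to 71990 in tuft cells, 4409 and 9168 in EECs and at most 1074 elsewhere, and the summed goblet markers were highest in SecPDG (726300 to 3072000) and tuft cells (720500 to 1095000), whose ranges overlapped. The summed enterocyte markers were 56590 to 83980 in enterocytes and 75990 to 115600 in AbsPro, and reached 23030 in EEC 1 and 156200 in EEC 2, above every enterocyte library. In EEC 2 the enterocyte genes Car1 (79380), Krt20 (43390), Cyp2c55 (13850), Slc20a1 (7159) and Aqp8 (2239) lay above every enterocyte library. Slc26a3 (4439) and Guca2a (3787) lay inside the enterocyte range, and Car4 (1927) lay under it. Krt20 was above every enterocyte library in EEC 1 too (16890), where Car1 was at 3466. The summed enteric neuron markers were 5691 and 7706 in EECs, 1142 to 2640 for tuft cells, 655 to 1810 for enterocytes and 0 to 239 for the other 3 types. Of these 16 neuron markers, 7 were called higher in EECs against stem cells (among them Nefm, Nefl and Ret) while Tubb3, Stmn2 and Vip were at 0 in stem cells, and Tubb3 and Uchl1 were at 0 in EEC 2. The part of such cells in the levels of the members was not tested. Of the tuft markers, Gfi1b and Il25 were at 0 in stem cells.

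EECs carried most of the secretory machinery. Of the 41 members, 27 were called higher in EECs against stem cells (6.58% of all genes were), and 20 were called higher in EECs than in each of the other 5 cell types (0.68%). The highest of these by fold were the granule cargo genes Vgf, Resp18, Scg3 and Pcsk1n. A smaller group followed SecPDG and tuft cells instead, with Rab3d, Rab27a, Sytl2, Sytl4 and Sybu highest in SecPDG. In all, 32 members had their highest mean in EECs, 5 in SecPDG, 3 in enterocytes and 1 in tuft cells (2 in enterocytes and 1 in AbsPro with the background taken off, where Scg2 moves), and 11 members were called higher than stem cells in no cell type. The share of all genes with their highest mean in EECs is not given here. For Cplx1, Syt4 and Pcsk2 the EEC mean came mainly from EEC 1 (221, 146 and 255, beside 3.64, 0 and 30.3 in EEC 2). Vamp2 and Ptprn2 stood at only 1.03 and 1.09 times the mean of the next cell type.

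**Figure D1:**
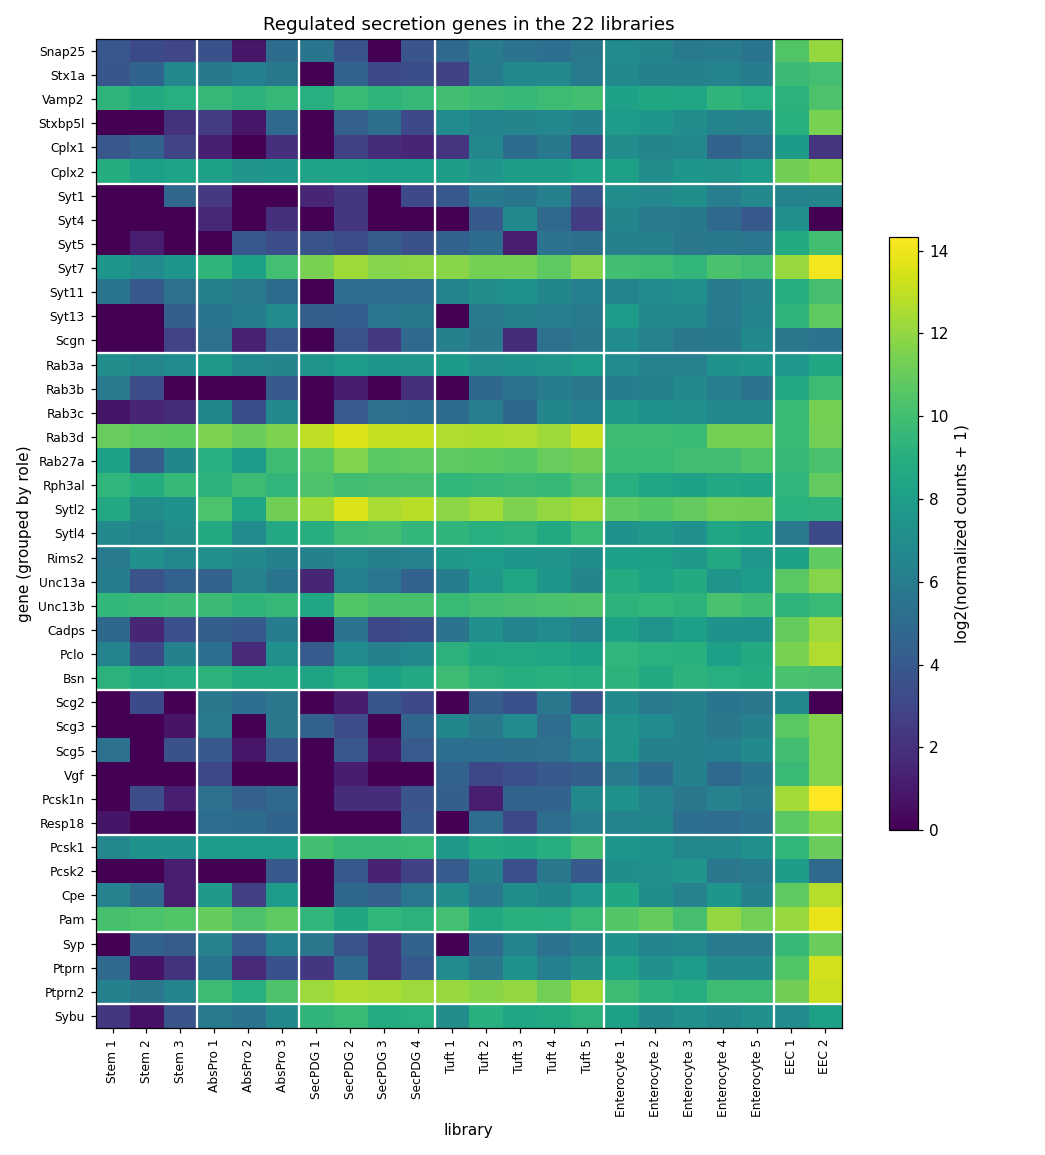
Level of each of the 41 members (rows, grouped by role) in each of the 22 libraries (columns, grouped by cell type), as log2(normalized counts + 1). The EEC columns are bright for most rows, while Rab3d, Rab27a, Sytl2, Sytl4, Ptprn2 and Sybu are bright in SecPDG and tuft cells.

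Against stem cells, AbsPro had 6 of 41 members called higher (0.342% of all genes tested were called higher), SecPDG had 8 (2.41%), tuft cells 18 (4.42%), enterocytes 18 (5.6%) and EECs 27 (6.58%). No member was called lower in any of these 5 comparisons, where edgeR called 0.0219%, 0.689%, 2.03%, 7.93% and 7.45% of all genes lower. These shares depend on the scaling, since with DESeq2's size factors 69.86% of the genes called in enterocytes and 72.36% of those in EECs were higher, beside 41.4% and 46.92% here. At an unadjusted p under 0.05, the numbers lower were 1 for AbsPro, 3 for SecPDG, 1 for tuft cells, 2 for enterocytes and 1 for EECs, and DESeq2 called 0 lower in each. The median log2 difference over the 41 members was 1.31 for AbsPro, 0.80 for SecPDG, 2.44 for tuft cells, 2.95 for enterocytes and 5.09 for EECs, beside 0.00, 0.02, 0.84, 1.16 and 0.70 over all genes tested. With genes at 0 in stem cells set to a lower bound, the AbsPro median was 1.25 and the others did not move. These comparisons share the stem cell libraries. With the minimum mean taken over the 2 types compared, the calls of Rab3c, Scg3, Resp18 and Sybu in AbsPro were lost. Tuft cells then lost Syt5, Rab3c, Vgf, Pcsk1n and Resp18, and enterocytes lost Syt5, Vgf and Resp18. With the estimated background taken off, AbsPro kept 1 of its 6 calls (Ptprn2) and gained Syt7, and tuft cells kept 12 of 18, losing Cadps, Pclo, Pcsk1n, Ptprn, Rab3c and Vgf. Enterocytes kept 17 of 18, losing Pclo. The background equalled at least 20% of the mean for 27 members in enterocytes and 19 in tuft cells. For stem cells this held for 13 members, for AbsPro 7, for SecPDG 10 and for EECs 8. In a fit of EECs and stem cells alone, 16 members were called higher in EECs, and 6 were called against each other type in fits of pairs. The EEC calls lost in the first of these fits were Bsn, Cpe, Pclo, Ptprn, Rab27a, Rims2, Scg5, Stx1a, Sybu, Syp and Syt13 (adjusted p = 0.0103 to 0.0743).

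Between the other cell types, 25 members were called higher and 1 lower in EECs than in AbsPro (4.72% and 6.15% of all genes). Against SecPDG, 24 were higher and 3 lower (6.65% and 8.34%). Against tuft cells, 22 were higher and 3 lower (1.77% and 3.53%), and against enterocytes, 23 were higher and 1 lower (1.73% and 1.15%). The 20 members higher in EECs than in each other type stand beside 0.68% of all genes. Tuft cells had 1 member (Vgf) higher than SecPDG and 0 lower (0.865% and 0.0351% of all genes), and enterocytes had 6 (Stxbp5l, Unc13a, Cadps, Pclo, Vgf and Ptprn) higher than AbsPro and 0 lower (1.91% and 3.18%). At an unadjusted p under 0.05, 2 members were lower in tuft cells than in SecPDG and 3 in enterocytes than in AbsPro, and DESeq2 called 0 in both. With the background taken off, all 6 calls of enterocytes against AbsPro and that of Vgf in tuft cells against SecPDG were lost, while DESeq2 called 19 and 16 members higher. Without AbsPro 2 the 6 were lost as well, and without AbsPro 1 the count was 2. The Vgf call was also lost in a fit of the pair, with legacy=FALSE, and without EEC 2, SecPDG 1, SecPDG 3 or SecPDG 4.

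The promoters of a few members held known motifs of neuroendocrine genes, shown here to give the letters behind the counts. RefSeq promoter windows of 300 bases (250 before and 50 after the start, GRCm38.p6) were at hand for 30 of the 41 members. The cyclic AMP response element TGACGTCA, searched on both strands, stood in 2 of the 30 (6.67%) and in 1.79% of all 32851 windows. Its core TGACG, which the full element contains, stood in 12 of the 30 (40%, beside 20.8%). The left part of RE1, the element bound by the neuronal repressor REST, was searched as TTCAGCACC and stood in 3 of the 30 (10%, beside 0.371%). Its right part GGACAG stood in 9 (30%, beside 22.2%), the E-box CAGATG in 2 (6.67%, beside 17.2%) and the TATA box TATAAA in 1 (3.33%, beside 13.6%). Capitals mark the matched letters, read on the strand of the gene, where the left part of RE1 reads as its reverse complement. The windows are Scg2 at chr1:79440079-79440102 and chr1:79440017-79440041, Pcsk1 at chr13:75089771-75089794, Unc13a at chr8:71671719-71671743 and Ptprn2 at chr12:116485725-116485749.
Scg2, cyclic AMP response element: tgagccggTGACGTCAgcgtggaa
Pcsk1, cyclic AMP response element: ggtagatcTGACGTCAagagatgg
Scg2, left part of RE1: agctgtccGGTGCTGAAacggcccg
Unc13a, left part of RE1: gcgcccccGGTGCTGAAgcgacatg
Ptprn2, left part of RE1: cgctgtccGGTGCTGAAgctcggcc
These matches are letters in a window and were not tested for binding. Among these 4 genes, Pcsk1 was called against stem cells in 3 cell types, Ptprn2 in all 5 and Unc13a in 2, and Scg2 could not be called.

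Granule cargo led the rise in EECs, with 5 of the 6 cargo genes called. Pcsk1n (proSAAS, an inhibitor of the convertase Pcsk1, chrX:7919822-7924410) stood at 0, 9.6 and 1.35 in stem cells, 40.3, 20.3 and 30.0 in AbsPro, and 0, 2.49, 2.53 and 12.7 in SecPDG. It stood at 19.5, 1.26, 22.8, 21.9 and 113 in tuft cells, 167, 88.3, 49.7, 79.8 and 56.8 in the enterocyte libraries, and 5151 and 20640 in the EEC pair. Both EEC libraries lay above every other library, with a log2 difference from stem cells of 11.68 ± 1.13 (SE), adjusted p = 5.86e-09. Vgf (a secreted neuroendocrine precursor, chr5:137026392-137033351) had 0, 0 and 0 in stem cells, 7.77, 0 and 0 in AbsPro, and 0, 1.24, 0 and 0 in SecPDG. Its levels were 22, 7.57, 10.1, 14.9 and 19.2 in tuft cells, 58.5, 31, 77.4, 28.5 and 47.1 in the enterocyte libraries, and 826 and 3109 in the EEC pair. Vgf had no count in the 3 stem cell libraries. The EEC mean was 2855-fold above a floor of 3 counts over the group, and 2322-fold above the upper counting limit. Both folds rest on the mean of EEC libraries at 826 and 3109.

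Resp18 (an endocrine granule protein related to the Ptprn family) had 0.765, 0 and 0 in stem cells, 34.6, 32.5 and 23.4 in AbsPro, and 0, 0, 0 and 14.7 in SecPDG. Further along it had 0, 34.1, 7.58, 33.4 and 68.6 in tuft cells, 84.8, 94.1, 37, 34.2 and 42.9 in the enterocyte libraries, and 1625 and 3524 in the EEC pair. With 1 count in all stem cell libraries, the EEC to stem cell ratio was 11210 with a counting interval of 2012 to 442700. Scg3 (secretogranin III, which binds granins to the granule membrane) had 0, 0 and 0.674 in stem cells, 58.6, 0 and 49.7 in AbsPro, and 20.8, 8.7, 0 and 24.5 in SecPDG. It had 92.8, 51.7, 124, 34.5 and 129.7 in tuft cells, 169.6, 125, 77.4, 51.3 and 73.4 in the enterocyte libraries, and 1620 and 3137 in the EEC pair. Its single count in stem cells gave a ratio of 10350 with a counting interval of 1858 to 408900. Scg5 (the chaperone of Pcsk2) had 41.3, 0 and 10.8 in stem cells, 14.8, 0.813 and 14.1 in AbsPro, and 0, 13.7, 0.842 and 16.6 in SecPDG. It reached 36.6, 36.6, 37.9, 39.1 and 70.3 in tuft cells, 168, 75.7, 75.1, 70.7 and 114 in the enterocyte libraries, and 1023 and 3168 in the EEC pair. EECs were the 1 cell type where Scg5 was called against stem cells (log2 difference 6.92 ± 1.07 (SE), adjusted p = 1.5e-05). The sixth cargo gene, Scg2 (secretogranin II), was at 101 in EEC 1 and at 0 in EEC 2, and its highest mean was 67.3 ± 23.8 (SD, n = 5), in enterocytes, where the estimated background equalled 40.1% of it. Less background, its mean per kb was 17.9 in AbsPro and 16.0 in enterocytes. In EEC 1 the background equalled 56.3% of the value.

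AbsPro, tuft cells and enterocytes also had cargo genes called against stem cells, at levels far under those of EECs. In AbsPro these were Scg3 (adjusted p = 0.00426, with overlap) and Resp18 (adjusted p = 0.0089), each against 1 count in stem cells. Tuft cells had Scg3, Vgf, Resp18 and Pcsk1n called, the last at 3.23 ± 0.86 (SE), adjusted p = 0.00879 and with overlap, and enterocytes had the same 4. With the minimum mean taken over the 2 types compared, tuft cells lost Vgf, Resp18 and Pcsk1n, enterocytes Vgf and Resp18, and AbsPro both of its cargo calls. In enterocytes Pcsk1n differed from stem cells by 4.49 ± 0.88 (SE), adjusted p = 0.000316. The share of the 6 group means that lay in EECs was 98.8% for Pcsk1n, 96.8% for Vgf, 95.5% for Resp18, 92.1% for Scg5 and 91.0% for Scg3. Chga and Chgb, granins that serve here as enteroendocrine markers, were called higher than in stem cells in each of the other 5 cell types. Of the 11 enteroendocrine markers, AbsPro had 2 called, SecPDG 2, tuft cells 3, enterocytes 5 and EECs 8. Of 9 gut peptide hormones, enterocytes had Nts, Gcg, Pyy and Sct called against stem cells, and AbsPro had Sct. Gcg (proglucagon) stood at 1159 to 4871 in enterocytes and 334 to 3421 in AbsPro, at 0 in EEC 1 and 2.43 in EEC 2, and was called lower in EECs than in both. The part of such cells in the cargo calls was not tested. With legacy=FALSE, another setting of the same test chosen after seeing the data, Scg3 and Resp18 were not called in AbsPro (adjusted p = 0.0808 and 0.127), nor Vgf, Pcsk1n and Resp18 in tuft cells (0.0555, 0.0307 and 0.011). The estimated background equalled 94.3% of the mean of Vgf in tuft cells, where the call was lost with the background taken off (adjusted p = 0.0544), and 56.5% in enterocytes.

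**Figure D2:**
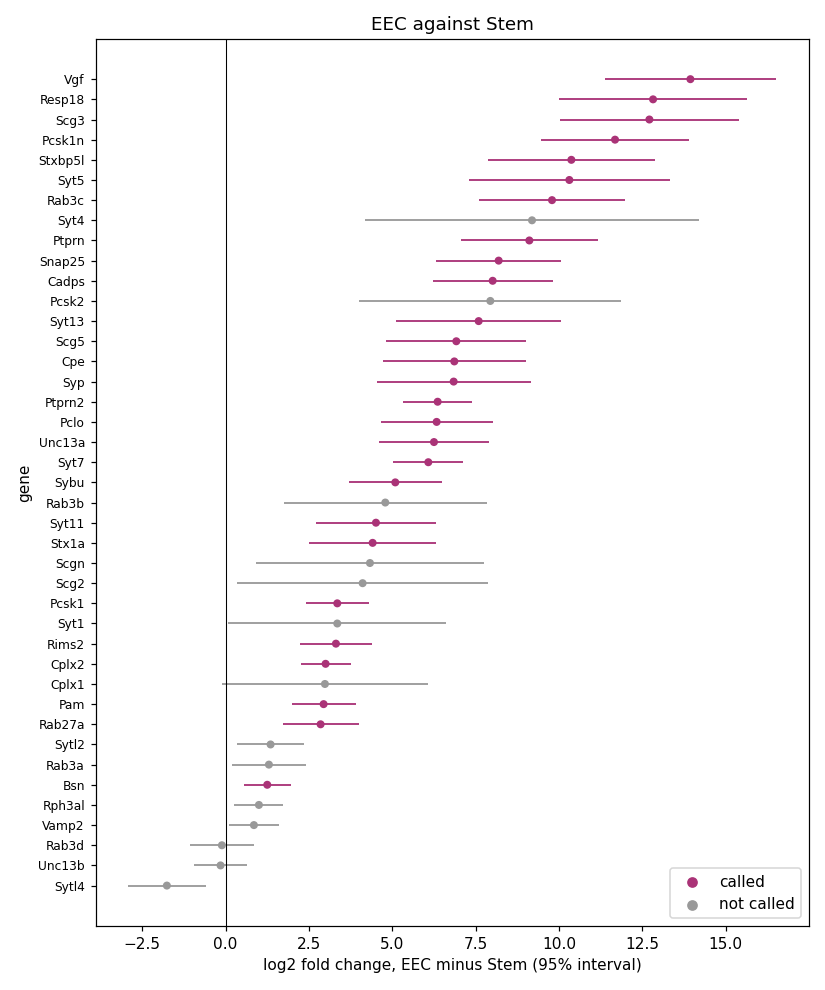
Log2 fold change of each of the 41 members between EECs and stem cells (points) with approximate 95% intervals (lines), ordered by size, with called members in purple and the others in grey. The intervals are built on standard errors derived from the F value of the test. 27 members are called, all of them higher in EECs, and Vgf, Resp18, Scg3 and Pcsk1n stand at the top. Vgf and Syt4 had no count in stem cells, so that their fitted values depend on the prior count.

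Of the 4 processing enzymes, 3 were called higher for EECs than for stem cells. Cpe (carboxypeptidase E, which trims basic residues from cut prohormones) had 80.3, 31.4 and 1.35 in stem cells, 218, 5.69 and 243 in AbsPro, and 0, 27.4, 20.2 and 49 in SecPDG. It had 127, 49.2, 138, 95.5 and 196 in tuft cells, 366, 142, 80.9, 181 and 78.9 in the enterocyte libraries, and 1859 and 6834 in the EEC pair. Both EEC libraries lay above all others (log2 difference from stem cells 6.86 ± 1.09 (SE), adjusted p = 2.39e-05). Pam, which amidates peptide ends, was high everywhere, with 1143, 1258 and 1381 in stem cells, 1972, 1283 and 1761 in AbsPro, and 702, 373, 719 and 595 in SecPDG. It had 1055, 410.1, 541, 497 and 842 in tuft cells, 1427, 1966, 1122, 4189 and 2501 in the enterocyte libraries, and 4475 and 14910 in the EEC pair. Its EEC mean of 9691 ± 7377 (SD, n = 2) was called against each other type, and it differed from stem cells by 2.94 ± 0.49 (SE), adjusted p = 4.47e-05. Pcsk1 (prohormone convertase 1) had 98.7, 166 and 156 in stem cells, 231, 239 and 245 in AbsPro, and 1004, 749.7, 758 and 794 in SecPDG. It had 211, 440.4, 380.4, 491 and 1014 in tuft cells, 183, 159.5, 98.2, 99.2 and 145 in the enterocyte libraries, and 723 and 2137 in the EEC pair. Besides EECs, SecPDG and tuft cells were called higher than stem cells for Pcsk1, by 2.56 ± 0.43 (SE), adjusted p = 9.9e-05 and 1.85 ± 0.41 (SE), adjusted p = 0.00178, and EECs by 3.35 ± 0.48 (SE), adjusted p = 4.73e-06. EECs and SecPDG did not differ by a call for Pcsk1, and their libraries overlapped. Pcsk2 (prohormone convertase 2) was at 255 in EEC 1 and 30.3 in EEC 2, where the background equalled 42.0% and 66.1% of these values, and at 51.3 to 178 in enterocytes.

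All 3 membrane proteins were called higher in EECs. Ptprn (IA-2, a transmembrane protein of dense core granules) had 29.1, 0.64 and 3.37 in stem cells, 47.3, 2.44 and 11.2 in AbsPro, and 3.78, 28.6, 3.37 and 14.7 in SecPDG. It had 118, 51.7, 160.5, 71.3 and 137 in tuft cells, 307, 149, 231, 107 and 109 in the enterocyte libraries, and 1414 and 10530 in the EEC pair. The 2 EEC libraries differed by 7.45-fold for Ptprn, the widest of any member higher in EEC 2, and both lay above all others (9.11 ± 1.04 (SE), adjusted p = 1.15e-07). In the fit of EECs and stem cells alone Ptprn was not called (adjusted p = 0.0145). Tuft cells (3.32 ± 0.80 (SE), adjusted p = 0.00437) and enterocytes (4.06 ± 0.82 (SE), adjusted p = 0.000481) were called as well. Its paralog Ptprn2 (phogrin) took another course, with 76.5, 50.6 and 88.3 in stem cells, 892, 498 and 1300 in AbsPro, and 4749, 6353, 5753 and 4771 in SecPDG. It had 4477, 3561, 4138, 2519 and 5415 in tuft cells, 891, 608, 492, 896 and 912 in the enterocyte libraries, and 2435 and 9365 in the EEC pair. Ptprn2 was called in all 5 comparisons with stem cells, from 3.40 ± 0.44 (SE), adjusted p = 8.42e-07 for enterocytes and 3.64 ± 0.46 (SE), adjusted p = 6.95e-05 for AbsPro to 5.81 ± 0.49 (SE), adjusted p = 2.47e-10 for tuft cells, 6.23 ± 0.51 (SE), adjusted p = 1.18e-09 for SecPDG and 6.36 ± 0.53 (SE), adjusted p = 4.33e-10 for EECs. The SecPDG libraries lay between the 2 EEC libraries. Syp (synaptophysin, a vesicle membrane protein) had 0, 20.5 and 17.5 in stem cells, 80.5, 17.1 and 73.2 in AbsPro, and 51, 12.4, 3.37 and 22.5 in SecPDG. It had 0, 31.6, 84.7, 43.7 and 62.7 in tuft cells, 162, 87.2, 103, 57 and 56.8 in the enterocyte libraries, and 790.0 and 2167 in the EEC pair, and EECs were called (6.84 ± 1.18 (SE), adjusted p = 6.53e-05).

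Among the SNARE proteins and their regulators, 4 of 6 were called higher for EECs than for stem cells, and the same 4 were called against each other type. Snap25 (a SNARE of the cell membrane, chr2:136713453-136782428) had 13.8, 8.32 and 7.41 in stem cells, 11.3, 0.813 and 31.9 in AbsPro, and 47.3, 12.4, 0 and 12.7 in SecPDG. It had 29.3, 64.4, 45.5, 36.8 and 52.7 in tuft cells, 118, 90.6, 60.1, 65 and 47.1 in the enterocyte libraries, and 1416 and 4354 in the EEC pair. The EEC libraries stood apart (8.19 ± 0.95 (SE), adjusted p = 1.44e-07), and enterocytes were also called (2.95 ± 0.74 (SE), adjusted p = 0.00328). The enterocyte call was lost with robust=TRUE and without EEC 2, Enterocyte 1 or any of the 3 stem cell libraries (adjusted p = 0.0102 to 0.0247). Stx1a (syntaxin 1A, its partner) had 13, 23.7 and 100.4 in stem cells, 54.4, 72.4 and 55.3 in AbsPro, and 0, 22.4, 7.58 and 9.79 in SecPDG. It had 6.1, 56.8, 104, 105 and 59.4 in tuft cells, 109.7, 76.9, 78.6, 84.4 and 63.7 in the enterocyte libraries, and 880.4 and 1065 in the EEC pair, with a log2 difference of 4.41 ± 0.97 (SE), adjusted p = 0.00105 in EECs. Stxbp5l (tomosyn-2, a brake on SNARE assembly) had 0, 0 and 3.37 in stem cells, 4.95, 0.813 and 29.1 in AbsPro, and 0, 19.9, 38.8 and 7.83 in SecPDG. It had 126, 87.1, 91, 102 and 78.6 in tuft cells, 236, 190.4, 130.5, 84.4 and 80.3 in the enterocyte libraries, and 548 and 2797 in the EEC pair. The calls against stem cells were in tuft cells (6.26 ± 1.10 (SE), adjusted p = 0.000129), enterocytes (6.83 ± 1.11 (SE), adjusted p = 3.33e-05) and EECs (10.37 ± 1.27 (SE), adjusted p = 3.81e-07).

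Cplx2 (complexin 2, which clamps and aids fusion) had 463, 275 and 312 in stem cells, 297, 175 and 192 in AbsPro, and 309, 323, 273 and 266 in SecPDG. It had 266, 177, 253, 259.9 and 323 in tuft cells, 281, 129.6, 192, 169 and 241 in the enterocyte libraries, and 2392 and 3211 in the EEC pair. Only EECs were called among the 5 comparisons with stem cells (3.00 ± 0.38 (SE), adjusted p = 7.91e-07). Cplx1 was at 221 in EEC 1 and 3.64 in EEC 2, and at 22.8 to 130 in enterocytes. The vesicle SNARE Vamp2 was present throughout, from 288 to 1301 normalized counts per library, with no call against stem cells.

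Of the 7 calcium sensors, 4 were called in EECs. Syt7 (synaptotagmin 7, a high-affinity sensor) had 187, 118 and 181 in stem cells, 676, 281 and 1045 in AbsPro, and 2811, 5095, 3408 and 3677 in SecPDG. It had 3467, 2581, 2633, 1788 and 3452 in tuft cells, 1025, 921, 727, 1179 and 996 in the enterocyte libraries, and 4527 and 17350 in the EEC pair. Enterocytes (2.58 ± 0.43 (SE), adjusted p = 3.8e-05), tuft cells (4.10 ± 0.46 (SE), adjusted p = 7.59e-08), SecPDG (4.53 ± 0.48 (SE), adjusted p = 3.1e-08) and EECs (6.08 ± 0.54 (SE), adjusted p = 1.29e-09) were called against stem cells. EECs were also called higher than SecPDG (1.55 ± 0.43 (SE), adjusted p = 0.00665), although EEC 1 lay inside the SecPDG range. This call was lost with a replicate block, in a fit of the pair, with no filter on low counts, and without EEC 2, SecPDG 1, SecPDG 3 or SecPDG 4. Syt5, Syt11 and Syt13 were low outside EECs. Syt5 had 0, 1.28 and 0 in stem cells, 0, 14.6 and 9.38 in AbsPro, and 12.3, 8.7, 17.7 and 10.8 in SecPDG. It had 22, 32.8, 1.26, 42.6 and 37.6 in tuft cells, 76, 75.7, 53.1, 53.6 and 48.5 in the enterocyte libraries, and 439 and 1017 in the EEC pair, and was called in tuft cells (adjusted p = 0.00261, with overlap), enterocytes (adjusted p = 0.000336) and EECs (adjusted p = 9e-06). With 2 counts of Syt5 in stem cells, the EEC to stem cell ratio was 1585 with a counting interval of 438.7 to 13090. Without EEC 2 the mean of Syt5 fell under the minimum of 50, while its difference passed the test (adjusted p = 0.000205).

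Syt11 had 47.4, 15.4 and 40.4 in stem cells, 73.5, 59.4 and 32.8 in AbsPro, and 0, 33.6, 33.7 and 35.3 in SecPDG. It had 85.4, 132, 162, 94.3 and 71.9 in tuft cells, 87.8, 122, 146, 59.3 and 80.3 in the enterocyte libraries, and 488 and 1085 in the EEC pair, with EECs called (4.51 ± 0.92 (SE), adjusted p = 0.000475). Syt13 had 0, 0 and 18.9 in stem cells, 46.6, 67.5 and 121 in AbsPro, and 18.9, 18.6, 48.9 and 53.9 in SecPDG. It had 0, 58, 78.4, 67.9 and 59.4 in tuft cells, 241, 107, 102, 60.5 and 88.6 in the enterocyte libraries, and 649 and 1833 in the EEC pair, with enterocytes (4.21 ± 1.04 (SE), adjusted p = 0.00297) and EECs (7.59 ± 1.26 (SE), adjusted p = 4.02e-05) called. The enterocyte call, where the background equalled 33.7% of the mean, was lost without Stem 1 or Stem 2 (adjusted p = 0.0177 and 0.0196). The EEC call was lost in the fit of EECs and stem cells alone (adjusted p = 0.0245). Syt1, Syt4 and Scgn (secretagogin) had their means below 50. In EECs they stood at 86.8 and 89.8 for Syt1, 146 and 0 for Syt4, and 50.6 and 44.9 for Scgn, and in EEC 1 the background equalled 126% of the value of Syt1, 60.2% of that of Syt4 and 63.2% of that of Scgn.

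The Rab GTPases and their effectors split by cell type. Rab3d (a Rab of exocrine granules, chr9:21907491-21918192) had 2048, 1739 and 1657 in stem cells, 2922, 2106 and 2866 in AbsPro, and 7970, 12340, 8602 and 8605 in SecPDG. It had 6221, 6190, 6224, 5100 and 8670 in tuft cells, 918, 954, 824, 2599 and 2595 in the enterocyte libraries, and 824 and 2536 in the EEC pair. SecPDG and tuft cells lay above every other library (2.37 ± 0.44 (SE), adjusted p = 0.000378 and 1.84 ± 0.42 (SE), adjusted p = 0.00252 against stem cells), and EECs were called lower than both (-2.48 ± 0.52 (SE), adjusted p = 0.000653 and -1.95 ± 0.50 (SE), adjusted p = 0.00809). The call against tuft cells was lost with a replicate block, in a fit of the pair, and without EEC 1, Stem 1, SecPDG 1, SecPDG 3, SecPDG 4, Tuft 1, Tuft 2, Tuft 3 or Tuft 5. Rab27a had 294, 17.9 and 93.7 in stem cells, 524, 243 and 900.3 in AbsPro, and 1499, 3184, 1654 and 1801 in SecPDG. It had 1722, 1671, 1490, 2077 and 2368 in tuft cells, 844, 825, 991, 969.5 and 1331 in the enterocyte libraries, and 745 and 1204 in the EEC pair. For Rab27a EECs (2.85 ± 0.58 (SE), adjusted p = 0.000471), enterocytes (2.88 ± 0.52 (SE), adjusted p = 0.000128), tuft cells (3.79 ± 0.55 (SE), adjusted p = 7.08e-06) and SecPDG (3.92 ± 0.56 (SE), adjusted p = 8.21e-06) were called.

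Sytl2 (a Rab27 effector, chr7:90302252-90410719) had 402, 136 and 160.4 in stem cells, 1249, 349 and 2352 in AbsPro, and 5081, 11950, 5865 and 7075 in SecPDG. It had 3651, 5260, 3061, 4145 and 5460 in tuft cells, 1840, 1536, 1885, 2453 and 2437 in the enterocyte libraries, and 560.4 and 626 in the EEC pair. Every cell type but EECs was called higher than stem cells, with 5.01 ± 0.54 (SE), adjusted p = 4.07e-08 for SecPDG, 4.21 ± 0.51 (SE), adjusted p = 2.79e-07 for tuft cells, 3.13 ± 0.48 (SE), adjusted p = 1.39e-05 for enterocytes and 2.5 ± 0.49 (SE), adjusted p = 0.00477 for AbsPro, where 1 library lay inside the stem cell range. EECs were called lower than SecPDG (-3.66 ± 0.60 (SE), adjusted p = 2.97e-05) and tuft cells (-2.86 ± 0.56 (SE), adjusted p = 0.000613). Sytl4 (granuphilin, another Rab27 effector) had 113, 85.8 and 135 in stem cells, 437, 122 and 405 in AbsPro, and 494, 905, 1017 and 706 in SecPDG. It had 671, 514, 605, 421 and 807 in tuft cells, 164, 214, 152, 339 and 292 in the enterocyte libraries, and 59.7 and 8.49 in the EEC pair. Sytl4 was called in SecPDG (2.81 ± 0.48 (SE), adjusted p = 0.000143) and tuft cells (2.44 ± 0.47 (SE), adjusted p = 0.000401), and was the 1 member called lower in EECs than in AbsPro, SecPDG, tuft cells and enterocytes alike. In EECs its background exceeded its value.

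Rab3c had 0.765, 1.92 and 2.69 in stem cells, 94, 9.76 and 114 in AbsPro, and 0, 16.2, 42.1 and 37.2 in SecPDG. It had 31.7, 68.2, 26.5, 94.3 and 71.9 in tuft cells, 209, 158, 150.2, 112 and 115 in the enterocyte libraries, and 819 and 2636 in the EEC pair. Calls against stem cells were in AbsPro (5.22 ± 0.96 (SE), adjusted p = 0.00279), tuft cells (4.92 ± 0.92 (SE), adjusted p = 0.000305), enterocytes (6.26 ± 0.96 (SE), adjusted p = 1.38e-05) and EECs (9.79 ± 1.11 (SE), adjusted p = 1.03e-07), and the background equalled 78.7% of its mean in tuft cells and 60.9% in enterocytes. Rab3b was at 405 and 909 in EECs and at most 111 in any other library, and was called higher in EECs than in AbsPro (6.96 ± 1.71 (SE), adjusted p = 0.00375) and SecPDG but not stem cells. Rab3a (81.5 to 375) and Rph3al (noc2, 299 to 1877) had no call against stem cells, and Rph3al was called higher in EECs than in enterocytes (1.76 ± 0.33 (SE), adjusted p = 0.0006). Sybu (syntabulin, a link between vesicles and kinesin) had 3.83, 0.64 and 12.8 in stem cells, 56.5, 42.3 and 106 in AbsPro, and 668, 812, 456 and 518 in SecPDG. It had 137, 543, 358, 409.5 and 597 in tuft cells, 285, 108, 149, 106 and 152 in the enterocyte libraries, and 121 and 279 in the EEC pair. All 5 cell types were called against stem cells, from 3.54 ± 0.66 (SE), adjusted p = 0.00306 for AbsPro, 4.77 ± 0.66 (SE), adjusted p = 3.11e-06 for enterocytes and 5.09 ± 0.71 (SE), adjusted p = 3.14e-06 for EECs to 6.12 ± 0.70 (SE), adjusted p = 9.78e-08 for tuft cells and 6.71 ± 0.72 (SE), adjusted p = 4.24e-08 for SecPDG. In EEC 1 the background equalled 72.5% of the value of Sybu. The EEC call of Sybu was lost in the fit of EECs and stem cells alone (adjusted p = 0.0721). With legacy=FALSE, Sybu and Rab3c were not called in AbsPro (adjusted p = 0.0505 and 0.0134).

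**Figure D3:**
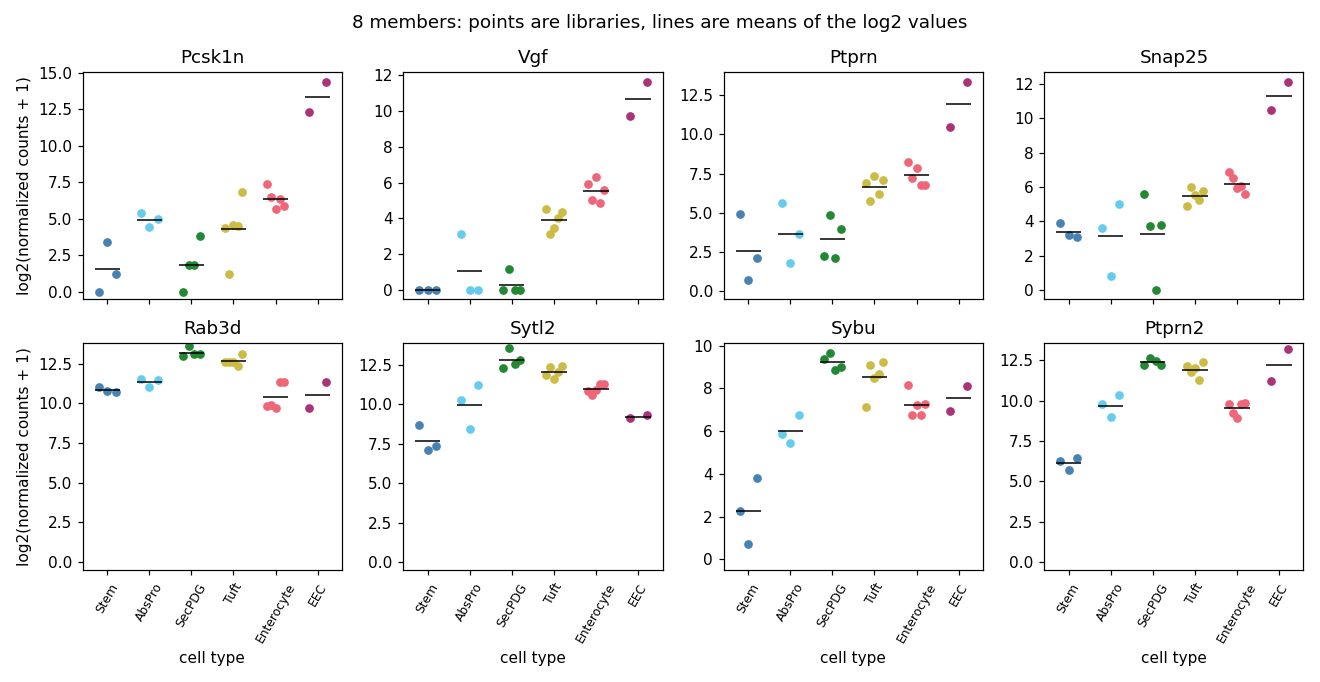
Levels of 8 members as log2(normalized counts + 1) by cell type, where points are libraries and black lines are means of the log2 values. Pcsk1n, Vgf, Ptprn and Snap25 are highest in both EEC libraries, while Rab3d, Sytl2 and Sybu have their highest means in SecPDG and Ptprn2 is high in SecPDG, tuft cells and EECs.

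Of the 6 priming and active zone genes, 5 were called higher for EECs than for stem cells. Cadps (CAPS1, which primes dense core granules) had 27.5, 1.92 and 10.1 in stem cells, 19.1, 15.4 and 63.8 in AbsPro, and 0, 43.5, 7.58 and 9.79 in SecPDG. It had 43.9, 149, 88.5, 126 and 80.3 in tuft cells, 288, 173, 276, 158 and 165 in the enterocyte libraries, and 1976 and 4764 in the EEC pair. Cadps was called in tuft cells (2.90 ± 0.71 (SE), adjusted p = 0.0049), enterocytes (4.02 ± 0.74 (SE), adjusted p = 0.000161) and EECs (8.01 ± 0.92 (SE), adjusted p = 1.15e-07). Unc13a (Munc13-1, a priming factor) had 66.5, 11.5 and 20.9 in stem cells, 21.9, 82.1 and 46.9 in AbsPro, and 1.89, 72.1, 48 and 20.6 in SecPDG. It had 63.5, 196, 351, 193 and 91.2 in tuft cells, 458, 316, 426, 169.9 and 239.5 in the enterocyte libraries, and 1633 and 3364 in the EEC pair, with enterocytes (3.29 ± 0.69 (SE), adjusted p = 0.000703) and EECs (6.25 ± 0.84 (SE), adjusted p = 1.63e-06) called. Its paralog Unc13b ranged from 357 to 1407 with no call, and its highest mean was in tuft cells.

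Pclo (piccolo, a large scaffold) had 84.2, 8.32 and 78.2 in stem cells, 36.7, 2.44 and 147 in AbsPro, and 17, 124, 75 and 101 in SecPDG. It had 581, 379.8, 396, 354 and 284 in tuft cells, 692, 578, 545, 267 and 432 in the enterocyte libraries, and 2744 and 6401 in the EEC pair. Tuft cells (2.81 ± 0.69 (SE), adjusted p = 0.00473), enterocytes (3.15 ± 0.70 (SE), adjusted p = 0.00121) and EECs (6.33 ± 0.86 (SE), adjusted p = 1.95e-06) were called. In enterocytes the background equalled 47.1% of the mean of Pclo. That call was lost with the background taken off, with robust=TRUE and without Stem 2 (adjusted p = 0.0145, 0.0112 and 0.0106). The tuft cell call was lost with the first 2 settings, and without Tuft 1 or any of the 3 stem cell libraries (adjusted p = 0.0101 to 0.0335). Rims2, a scaffold that binds Rab3, had 61.2, 152 and 103 in stem cells, 147, 116 and 78.8 in AbsPro, and 78.5, 98.2, 74.1 and 81.3 in SecPDG. It had 214, 236, 182, 177 and 138 in tuft cells, 268, 283, 204, 407 and 201 in the enterocyte libraries, and 298 and 1793 in the EEC pair, with EECs called (3.31 ± 0.56 (SE), adjusted p = 4.73e-05), and the background equalled 59.6% of the value in EEC 1. Without EEC 2 the difference of Rims2 was 1.5 (adjusted p = 0.0446). Bsn (bassoon) had 594, 401 and 459 in stem cells, 612, 438 and 419 in AbsPro, and 329, 479.9, 276 and 407 in SecPDG. It had 898, 583, 478, 545 and 481 in tuft cells, 614, 430.2, 626, 529 and 461 in the enterocyte libraries, and 1204 and 1104 in the EEC pair, with EECs called (1.25 ± 0.36 (SE), adjusted p = 0.00753). The Bsn call was lost with no filter on low counts, in a fit of the pair, with a replicate block, and without EEC 1, Enterocyte 1, SecPDG 2, Tuft 2, Tuft 4 or any of the 3 stem cell libraries (adjusted p = 0.0101 to 0.0517).

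Per kilobase of exon, the leading members differed between cell types. In stem cells Rab3d led with 458.5 normalized counts per kb, followed by Pam and Vamp2. Rab3d also led in SecPDG with 2369, ahead of Sytl2, Ptprn2 and Syt7, and in tuft cells with 1637. Pam led in enterocytes with 546. In EECs Pcsk1n led with 5880, ahead of Syt7 with 4907 and Resp18 with 3442. The summed normalized counts of the members were 7290 ± 895 (SD, n = 3) in stem cells, 35020 ± 8017 (n = 4) in SecPDG and 95010 ± 66990 (n = 2) in EECs.

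The 2 EEC libraries differed in level for most members. In all, 34 of the 41 members were higher in EEC 2 than in EEC 1, by 4.01-fold for Pcsk1n and 3.83-fold for Syt7. The exceptions were Cplx1, Syt4, Scgn, Sytl4, Bsn, Scg2 and Pcsk2. Of these, Syt4 and Scg2 had 81 and 56 counts in EEC 1 and none in EEC 2, which allows up to 3 counts. EEC 1 held 89.7% of its reads outside annotated features, beside 64.5% in EEC 2. Without EEC 2, the members called higher in EECs than in each other cell type fell from 20 to 6.

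**Figure D4:**
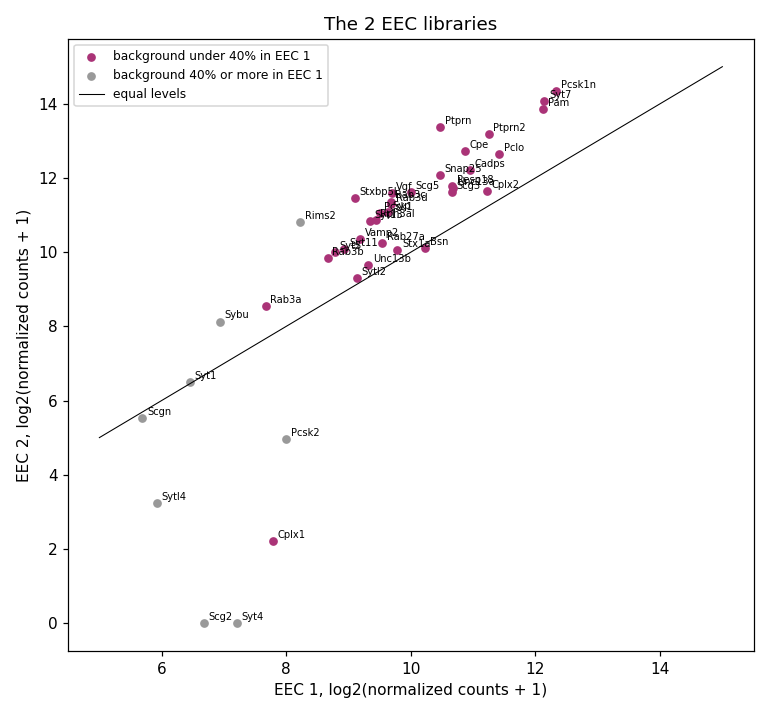
Level of each member in EEC 1 (x axis) and EEC 2 (y axis) as log2(normalized counts + 1), with a line of equal levels. Most members lie above the line, and the 8 members with an estimated background of at least 40% of their value in EEC 1 are grey.

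Of 86 other genes of exocytosis and granule maturation, 16 were called higher in EECs against stem cells and 0 lower (6.58% and 7.45% of all genes). At an unadjusted p under 0.05, 5 of the 86 were lower, and DESeq2 called 1 lower. Those with a mean under 50 could not be called. The SNARE and SM list had 2 of 17 called, among them Stxbp5 (tomosyn-1, log2 difference 1.46 ± 0.38 (SE), adjusted p = 0.00405). Of 16 other calcium sensors, 3 were called, namely Doc2b (658 ± 161 normalized counts in EECs (SD, n = 2), against 2 counts in all stem cell libraries), Syt14 (log2 difference 6.41) and Syt9 (5.72). The Rab list had 2 of 14, Sytl5 (4.92) and Myo5a (3.46), and the priming list 8 of 21, led by the vesicle proteins Sv2b and Syn1 (7.18) and the Munc13 relative Baiap3 (6.11). Sv2b was at 3.64 in EEC 2 and 274.8 in EEC 1, against 2 counts in stem cells. Of 18 processing and granule genes, the 1 called was Slc18a1 (the vesicular monoamine transporter of enterochromaffin cells, 10.17 ± 0.71, adjusted p = 1.33e-11). SecPDG had 7 of the 86 called higher and 1 lower (Pcsk5), tuft cells 9 and 0, enterocytes 15 and 0, and AbsPro 1 (Slc18a1) and 0. In the same order, 2.41%, 4.42%, 5.6% and 0.342% of all genes were called higher, and 0.689%, 2.03%, 7.93% and 0.0219% lower. At an unadjusted p under 0.05, 2 of the 86 were lower in tuft cells, 3 in enterocytes and 3 in AbsPro, and DESeq2 called 0 in each. SecPDG and tuft cells both had Rab27b called (log2 difference 2.44 and 2.11), with the Rab27 effectors Myrip (5.03 and 4.38) and Mlph (3.00 and 2.07).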

How the data were processed

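RNA of 22 libraries of sorted mouse colon crypt cells was analysed. The authors aligned the reads to mm10 with STAR 2.5.2a, counted them with HTSeq 0.6.1p1 without strand, and deposited raw counts per gene. The 5 summary lines per file that name no gene (53.9% to 91.6% of a library) were left out. Counts were tested with edgeR 4.0.16 in R 4.3.3 (filterByExpr, TMM, estimateDisp, glmQLFit at its default and glmQLFTest) in a single fit over the libraries of all cell types, without covariates, and the scripts were tested on simulated data with 200 changed genes. After values had been seen, 10 dispersion settings of this test were compared by their number of calls over all genes. The default, which had been run first, was kept as the reported fit, although the setting legacy=FALSE calls 1.42 to 1.87 times as many genes against stem cells. That setting and robust=TRUE are given as alternatives chosen after seeing the data. DESeq2 1.42.0, other scalings, other minimums, thinned counts, background taken off, fits of pairs of types, a replicate block and leaving out libraries singly were the other alternatives. The members and all lists were chosen with earlier results of these data known. Genes were named by a rule: every member by role, each library's values for members called against stem cells, and the 3 called related genes with the largest change in EECs per list. Related genes beyond the first 3 are named by count only. Values of some genes that this rule would name are not reported here. Coordinates and exon lengths come from GENCODE M21 (GRCm38), with exons of RefSeq-matched transcripts. Protein sequences were not used here, so that the Rab3 proteins were not compared. The deposited splicing and polyadenylation tables, which hold the authors' own comparisons, were not used. In the reported fit, p-values rest on a spread between libraries that was estimated over all cell types. Those of EECs thus do not measure the spread of the EEC libraries alone. Intervals on counts cover counting error only. Summaries used Python 3.11.15 with pandas 2.3.3, numpy 2.4.6 and matplotlib 3.10.9.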

Additional observations from a re-analysis of the deposited data

Results flagged for a closer look

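Of 83 sets of 4 or 5 libraries tested (a called member in a cell type), 5 had 1 library far from the others by Dixon's criterion, where chance alone gives about 1 in 20. Syt13 was at 0 in Tuft 1, while the other 4 tuft libraries held 58.0 to 78.4 normalized counts. In Enterocyte 1 Syt13 was at 241, beside 60.5 to 107 in the other enterocyte libraries. Rab3d was at 12300 in SecPDG 2 (to 3 digits), beside 7970 to 8600 in the rest. Bsn was at 898 in Tuft 1, beside 478 to 583. Sybu was at 285 in Enterocyte 1, beside 106 to 152.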

How the results depend on the processing

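Of the 77 member calls against stem cells, 42 were kept in each of 37 settings, 35 were lost in at least 1, and none reversed. Of the counts of members called, 781 values stayed within 1.5 times the reported count and 70 did not. The settings legacy=FALSE and robust=TRUE were chosen after seeing the data, and the cause of each change below was not tested.

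With legacy=FALSE, AbsPro had 3 members higher than stem cells, tuft cells 4 higher than SecPDG and enterocytes 10 higher than AbsPro, and over all genes it called 134, 1134, 2748, 5060 and 4541 genes against stem cells, in the order AbsPro, SecPDG, tuft, enterocyte and EEC, where the reported fit called 83, 707, 1468, 3082 and 3197. With robust=TRUE, enterocytes had 1 member higher than AbsPro. DESeq2 called 2 members lower in EECs than in enterocytes, 16 higher in tuft cells than in SecPDG and 19 higher in enterocytes than in AbsPro, and 420, 1856, 3835, 5240 and 5680 genes in all against stem cells. Its size factors in edgeR gave 0 lower in EECs than in enterocytes and 10 higher in enterocytes than in AbsPro, and library totals gave 1 lower in SecPDG than in stem cells and 4 higher in tuft cells than in SecPDG. Fits of pairs of cell types gave 2 higher in AbsPro, 11 in tuft cells and 16 in EECs against stem cells, 8 higher and 0 lower in EECs than in AbsPro, 0 lower in EECs than in enterocytes, and 6 higher in EECs than in every other type, with 310, 1808, 2639, 4117 and 261 genes in all. A minimum mean over the 2 types compared gave 2 for AbsPro and 0 for tuft cells against SecPDG. An adjusted p under 0.05 gave 2 lower in enterocytes and 1 lower in EECs than in stem cells, 2 lower in EECs than in enterocytes, 11 higher in tuft cells than in SecPDG, and 11 higher and 1 lower in enterocytes than in AbsPro. Thinned counts gave 3 for AbsPro and 6 for tuft cells against SecPDG. Background taken off gave 2 for AbsPro, 1 lower in EECs than in stem cells, 0 for tuft cells against SecPDG and 0 for enterocytes against AbsPro.

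Leaving out 1 library at a time gave 1 to 7 members higher in AbsPro than in stem cells (1 without AbsPro 3 or Stem 2, 3 without Stem 1 or Stem 3), 0 to 2 lower in enterocytes and 0 to 1 lower in EECs than in stem cells. EECs had 16 to 26 higher than AbsPro, 9 to 25 higher and 0 to 1 lower than enterocytes, and 6 to 21 higher than every other type, each lowest without EEC 2. Tuft cells had 0 to 4 higher than SecPDG (0 without SecPDG 1, SecPDG 3 or EEC 2), and enterocytes 0 to 8 higher (0 without AbsPro 2, 2 without AbsPro 1, Enterocyte 2 or Enterocyte 3) and 0 to 3 lower than AbsPro (3 without EEC 1).

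Deviations of libraries of the same replicate number had a median correlation of 0.002 over 44 pairs (-0.391 to 0.501). Over 154 pairs of other numbers it was 0.007 (-0.552 to 0.624). These medians cannot show whether some libraries shared mice, sorts or a batch. With a replicate block, AbsPro had 5 members higher than stem cells, SecPDG 8, tuft cells 16, enterocytes 18 and EECs 26, and 14 were higher in EECs than in every other type. The block took Scg3 in AbsPro, Cadps and Pcsk1n in tuft cells and Bsn in EECs off the calls (adjusted p = 0.011, 0.011, 0.0487 and 0.0116).

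The share of called genes that were higher than in stem cells was 41.4% in enterocytes, 46.92% in EECs and 77.79% in SecPDG, beside 69.86% and 72.36% with DESeq2's size factors for the first pair and 54.31% with library totals for SecPDG. Over 5 scalings the median of all genes ranged from 1.164 to 1.981 (log2) in enterocytes and from 0.696 to 1.45 in EECs (0.792 and 0.231 with the background taken off), where that of the members ranged from 5.094 to 5.78. EEC 1 had the fewest reads, which limits what a count of 0 there can show.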
